A study of Mus musculus with 9 samples.

Results

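The genes described here are 38 imprinted genes, taken by name from a table of 54532 genes measured in the mouse hypothalamus. An imprinted gene is expressed mainly from the copy inherited from 1 parent, because DNA methylation laid down in the egg or the sperm marks a control region nearby. Such genes sit in clusters, and long noncoding RNAs such as Airn and Kcnq1ot1 silence neighbours on the same chromosome. Many act on fetal growth, suckling, body temperature and feeding, and loss of the paternal copies of Magel2, Necdin (Ndn) and their neighbours is linked to Prader-Willi syndrome, in which hypothalamic control of appetite is disturbed. The list was chosen by name and not by its values, although earlier results on these libraries were known when it was written.

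RNA came from wild type male ICR mice, an outbred stock, at postnatal day 21, with 3 libraries in each of 3 groups. LP had dams on a diet with 10% of energy from fat and daily PBS. HP had daily PBS and dams fed a diet high in fat and sucrose (HFHS), with 45% of energy from fat. HA had dams fed the HFHS diet and daily 4-PBA, a chemical chaperone and inhibitor of histone deacetylases. Injections ran from postnatal day 4 to day 16. Dams began the diets at 5 weeks of age, ate them for 5 weeks before mating and kept to them until weaning, and litters were set to 10 pups. Libraries are named by group and replicate, from LP1 to HA3. The titles also carry a code, Lg42 for LP1, Lg63 for LP2 and LP3, Hg43 for replicates 1 and 2 of HP and HA, and Hg13 for HP3 and HA3. What the code stands for is not stated, nor whether the 3 pups in a group had different mothers. The p-values therefore reflect variation among the sampled libraries, part of which may be technical.

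Library totals lay between 18226924 and 21823961 counts. All 13 hypothalamic markers were detected in every library, with summed levels of 1046.1 to 1381.3 CPM, the count scaled by library total. LP3 and HA3 stood apart: the summed level of 17 markers of meningeal fibroblasts, the matrix-forming cells of the membranes around the brain, was 821 CPM in LP3 and 1528.5 CPM in HA3, against 107 to 224 CPM in the other 7 libraries, and none of the 17 was at 0 in any library. Markers of pituitary (31.6 to 69.2 CPM), choroid plexus (30.7 to 50.7 CPM) and blood vessels (258 to 392 CPM) were also highest in one or other of these libraries. Striatal markers summed to 267 CPM in LP1 and 362 CPM in LP2, against 140.3 to 156 CPM elsewhere. In bulk tissue a change in the number of cells of a type and a change in RNA per cell cannot be told apart.

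Sequences come from RefSeq (GRCm38.p6). Of the 38 genes, 30 matched at least 1 promoter window of 300 bases, most of it before the start site, and there were 47 such windows in all. Methylation marks of imprinting fall on CG dinucleotides, a C followed by a G. The member windows held a median of 15 CG, against 7 over all 32851 windows in the table. Among them were 0 CG in the window of Rian and 45 CG in 1 window of Grb10. Some genes gave several windows, and no matched set of promoters was compared, so the difference is not shown to go with imprinting. The windows shown belong to the most abundant genes, Nap1l5 and Nnat, to Igf2, whose level differed most between libraries, and to Peg3 and Usp29, which share a promoter. They are written 5′ to 3′ on the gene's strand, with each CG in capitals.
Nap1l5, chr6:58907077-58907376, minus strand: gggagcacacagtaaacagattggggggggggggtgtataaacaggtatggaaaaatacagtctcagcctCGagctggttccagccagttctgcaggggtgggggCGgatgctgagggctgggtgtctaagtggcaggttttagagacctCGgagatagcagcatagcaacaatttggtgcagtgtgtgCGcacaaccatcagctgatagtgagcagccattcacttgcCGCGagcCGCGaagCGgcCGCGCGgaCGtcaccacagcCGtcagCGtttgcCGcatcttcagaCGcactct
Nnat, chr2:157559828-157560127, plus strand: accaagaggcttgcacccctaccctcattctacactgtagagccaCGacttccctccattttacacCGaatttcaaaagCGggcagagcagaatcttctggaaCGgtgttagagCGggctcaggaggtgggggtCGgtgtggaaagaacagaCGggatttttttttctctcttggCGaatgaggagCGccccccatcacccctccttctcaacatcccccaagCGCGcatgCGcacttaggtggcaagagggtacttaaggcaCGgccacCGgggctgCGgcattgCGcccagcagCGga
Igf2, chr7:142658755-142659054, minus strand: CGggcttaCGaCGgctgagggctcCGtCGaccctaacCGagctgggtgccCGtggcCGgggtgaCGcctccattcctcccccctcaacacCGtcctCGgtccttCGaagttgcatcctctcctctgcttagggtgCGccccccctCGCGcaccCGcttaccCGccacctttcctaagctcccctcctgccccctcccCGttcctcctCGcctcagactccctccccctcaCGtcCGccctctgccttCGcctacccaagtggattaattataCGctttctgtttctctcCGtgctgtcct
Peg3, chr7:6730370-6730669, minus strand: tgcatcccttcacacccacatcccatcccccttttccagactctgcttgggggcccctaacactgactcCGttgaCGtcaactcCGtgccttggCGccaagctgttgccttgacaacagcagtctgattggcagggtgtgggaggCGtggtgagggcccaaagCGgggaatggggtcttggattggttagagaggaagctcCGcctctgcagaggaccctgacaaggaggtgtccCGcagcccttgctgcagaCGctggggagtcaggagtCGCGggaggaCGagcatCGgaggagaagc
Usp29, chr7:6730333-6730632, plus strand: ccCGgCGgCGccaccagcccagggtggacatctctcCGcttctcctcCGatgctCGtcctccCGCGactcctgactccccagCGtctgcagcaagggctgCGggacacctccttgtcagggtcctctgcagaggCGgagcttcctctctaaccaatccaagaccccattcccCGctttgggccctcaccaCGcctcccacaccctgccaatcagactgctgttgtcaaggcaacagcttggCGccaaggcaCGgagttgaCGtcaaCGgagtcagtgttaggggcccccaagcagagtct
The Nap1l5 and Nnat windows held 17 CG each. The Igf2 window is the richest of 4 annotated for that gene, with 24 CG against 7, 14 and 2 in the others. The Peg3 and Usp29 windows share 263 bases on opposite strands, and their gene models are separated by 146 bases. No methylation was measured in these libraries.

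H19 and Igf2 also host microRNAs, shown because these 2 transcripts varied most. Capitals mark the seed, bases 2 to 8.
mmu-miR-675-5p, in H19: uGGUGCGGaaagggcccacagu
mmu-miR-675-3p, in H19: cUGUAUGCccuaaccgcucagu
mmu-miR-483-5p, in Igf2: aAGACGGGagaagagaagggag
mmu-miR-483-3p, in Igf2: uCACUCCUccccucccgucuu
The 4 seeds differ from one another. Small RNAs were not sequenced, so the mature microRNAs have no values here.

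Levels per length spanned several orders of magnitude. In the deposited FPKM values, which scale counts by gene length and library total, 8 of the 38 genes had a mean of at least 100 FPKM, 21 had at least 10 FPKM and 4 lay under 1 FPKM. Nap1l5, a gene of the nucleosome assembly protein family that lies in an intron of Herc3, was highest, at 1130.6 ± 55.6 FPKM (SD, n = 9). Nnat, which encodes the small membrane protein neuronatin, followed at 457 ± 79.0 FPKM, and Ndn, a MAGE family gene of postmitotic neurons, at 278 ± 9.67 FPKM. Next came Impact (220.2 ± 12.4 FPKM), Snrpn (170.3 ± 10.2 FPKM), Meg3 (134 ± 19.7 FPKM), Peg3 (119 ± 5.44 FPKM) and Peg10 (101 ± 7.4 FPKM). The levels of Meg3 and Peg3 overlapped between libraries, as did those of Zdbf2 and Magel2, which had the same mean, 16.9 FPKM. At the low end were Igf2 (0.964 ± 1.24 FPKM), Airn (0.588 ± 0.113 FPKM), Kcnq1ot1 (0.232 ± 0.0261 FPKM) and Phlda2, a growth-restraining gene of the placenta. The Igf2 model shares 62.8% of its exon bases with Gm49394 on the same strand, so the counts and FPKM of Igf2 may be incomplete. Phlda2 had 0 counts in 7 libraries, 2 counts in LP3 and 1 count in HA2. It did not pass the filter on low counts, so 37 genes were tested.

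**Figure D1:**
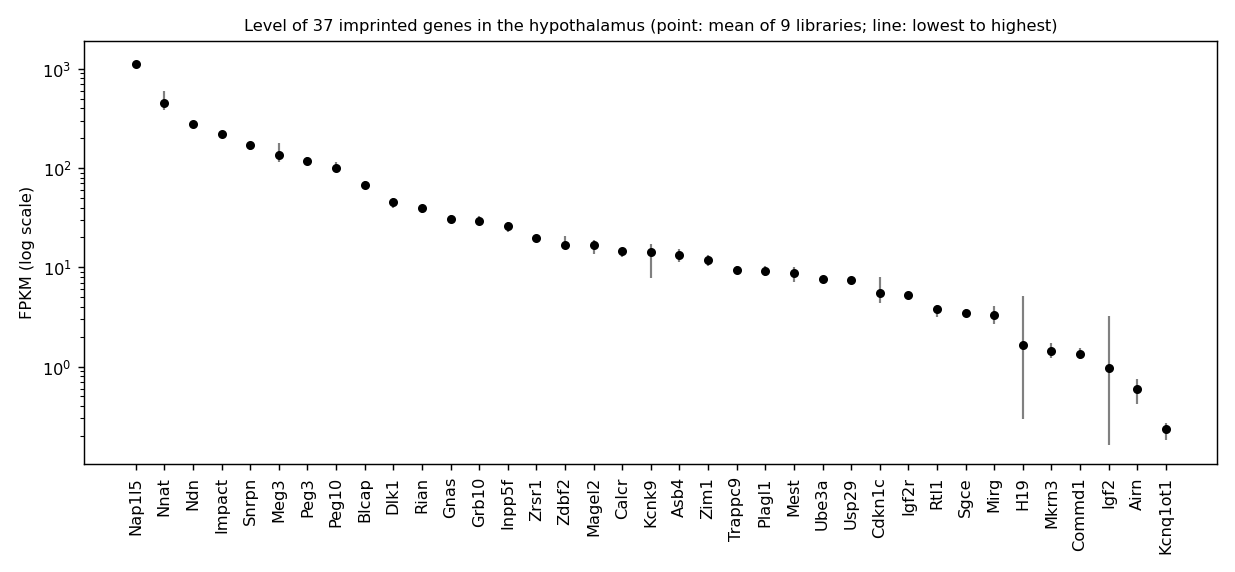
Mean FPKM over 9 libraries (points) and the lowest to highest library (lines) for the 37 imprinted genes that were tested, on a log axis, in order of level. Nap1l5 is highest at 1130.6 FPKM, and the lines of H19 and Igf2 are the longest.

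Most of these genes were steady from library to library. The coefficient of variation of CPM over all 9 libraries was under 10% for 26 of the 37 tested genes and under 15% for 31, with a median of 7.5%. It was not computed over all genes, so this steadiness is not shown to be particular to imprinted genes. Igf2 (129%), H19 (124%) and Kcnk9 (25.5%) varied most, followed by Cdkn1c (24.5%). For the other 33 genes the highest library was 1.11 to 1.81 times the lowest, with a median of 1.24.

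No imprinted gene was called in any of the 3 comparisons (edgeR quasi-likelihood test, Benjamini-Hochberg adjusted p over 17546 genes, threshold 0.05). HP against LP, which asks about the diet of the dam, called 0 of 37, with 0.0114% of all genes called. HA against HP, which asks about 4-PBA, called 0 of 37, again with 0.0114% of all genes called. HA against LP called 0 of 37, with 0.0% of all genes called. At an unadjusted p under 0.05 there were 0, 0 and 1 imprinted genes, where 6.12%, 5.42% and 6.51% of all genes had such a p. DESeq2 also called 0 in each comparison, with 0, 1 and 2 at an unadjusted p under 0.05. Of the 32580 genes with a p from DESeq2, 2.65%, 2.43% and 2.89% had such a p. Those genes include many that the edgeR filter on low counts removed, so these shares are not comparable with the edgeR shares over 17546 genes. In HP against LP 20 estimates were higher and 17 lower, in HA against HP 22 and 15, and in HA against LP 20 and 17. The median log2 fold changes were 0.006, 0.018 and 0.012, next to -0.002, 0.003 and 0.006 over all genes tested. HP against LP and HA against HP share the HP libraries, and the other pairs of comparisons likewise share a group.

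The precision differed by gene. In each comparison the 95% confidence interval lay within a 2-fold change for 35 of 37 genes, the exceptions being Igf2 and H19, and within a 1.5-fold change for 32. The median half-width of the interval was 0.182, 0.182 and 0.181 on the log2 scale. Split by the allele known to be expressed, the 20 genes of plain paternal expression had median log2 fold changes of 0.01 in HP against LP, 0.04 in HA against HP and 0.04 in HA against LP, and the 7 tested genes of plain maternal expression had -0.05, 0.08 and 0.03. Library counts cannot show which allele was read.

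**Figure D2:**
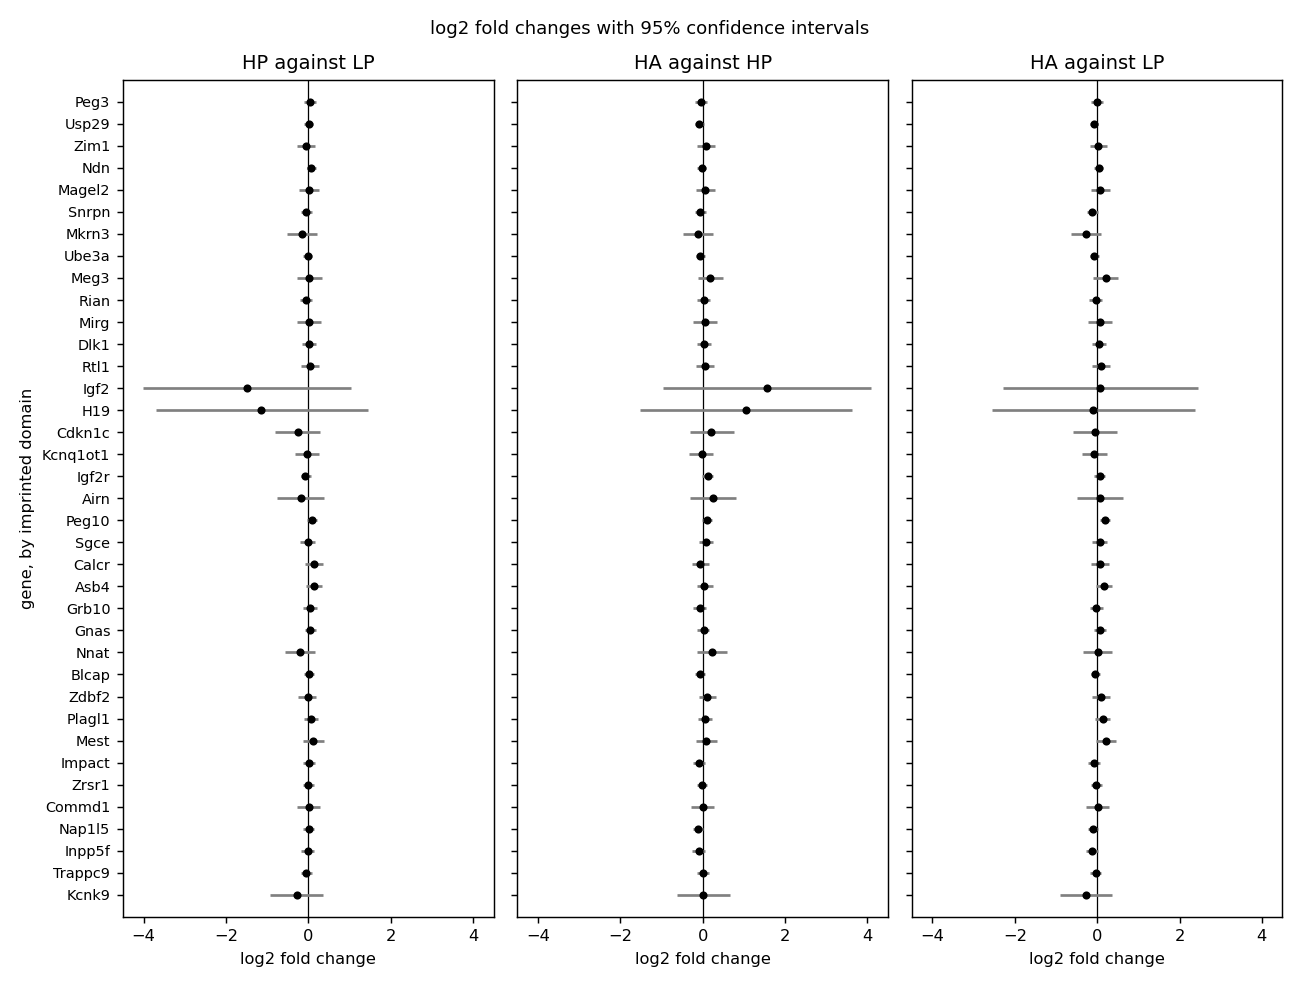
Log2 fold changes (points) with 95% confidence intervals (lines) from edgeR for 37 imprinted genes in the 3 comparisons, ordered by domain. Intervals are widest for Igf2 and H19, and no gene passed an adjusted p of 0.05.

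In the Peg10 domain on chromosome 6, Peg10 (ENSMUSG00000092035, chr6:4747306-4760517), a gene derived from a retrotransposon and needed in the placenta, had the smallest p in HP against LP and in HA against LP. It stood at 650.3, 605 and 642 CPM in LP, at 677, 695 and 651 CPM in HP and at 714, 775 and 686 CPM in HA. All HP and all HA libraries lay above all LP libraries, while HP and HA overlapped. The log2 fold change of HA against LP was 0.20 (SE 0.056, 95% interval 0.07 to 0.32), with an unadjusted p of 0.00549 and an adjusted p of 0.645 (edgeR), so it did not pass. HP against LP gave 0.09 (adjusted p = 0.872) and HA against HP 0.10 (adjusted p = 0.84). Groups without overlap in the same direction were found for 5.93% of all genes in HP against LP and 5.4% in HA against LP. In HP against LP 0 imprinted genes lay below without overlap, against 5.83% of all genes.

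Its neighbours were less separated. Asb4, which encodes part of a ubiquitin ligase and is expressed in arcuate neurons, stood at 50.4, 45.0 and 50.3 CPM in LP, 51.4, 57.5 and 50.3 in HP and 49.2, 54.2 and 60.8 CPM in HA. The groups overlapped (log2 fold change of HP against LP 0.13, adjusted p = 0.886; of HA against LP 0.17, adjusted p = 0.791; edgeR). Calcr, the receptor of calcitonin and, with partner proteins, of amylin, stood at 61.0, 51.9 and 49.4 CPM in LP, 61.2, 60.1 and 57.3 in HP and 61.2, 49.8 and 59.4 CPM in HA. LP1 was as high as the HP libraries, and HP against LP gave 0.14 (adjusted p = 0.886, edgeR). Sgce, which encodes epsilon-sarcoglycan, ranged from 33.5 to 40.5 CPM over the 9 libraries.

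In the Prader-Willi and Angelman domain on chromosome 7, no gene of the 5 was called. Ndn stood at 1066.5, 965 and 986 CPM in LP, 1052.7, 1043.3 and 1070.5 in HP and 1025.6, 1045.7 and 1026 CPM in HA. Its groups overlapped in HP against LP (log2 fold change 0.07, adjusted p = 0.886, edgeR). Snrpn, which encodes a splicing protein of neurons, stood at 397, 377 and 376 CPM in LP, 371, 339.6 and 398 in HP and 364, 363 and 333 CPM in HA. Every HA library was below every LP library, a pattern shared by 5.51% of all genes, but the difference did not pass (log2 fold change -0.12, adjusted p = 0.808, edgeR). The Snrpn model shares 27.3% of its exon bases with Gm38393 on the same strand, so its counts may be incomplete. Magel2, a regulator of protein recycling in hypothalamic neurons, ranged from 62.6 to 87.1 CPM, Mkrn3, a brake on the onset of puberty, from 3.14 to 4.43 CPM, and Ube3a, the ubiquitin ligase lost in Angelman syndrome, from 152 to 171 CPM. Ube3a shares 8.7% of its exon bases with Snhg14 on the other strand, and reads there are not separable without strand information.

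The Peg3 domain showed no separation of groups. Peg3, a zinc finger protein gene linked to maternal care and feeding, stood at 1713.4, 1505.3 and 1515.9 CPM in LP, 1675.6, 1565.8 and 1623.4 in HP and 1623, 1577.4 and 1529.9 CPM in HA. Usp29, the gene read from the same promoter in the other direction, stood at 144, 131 and 132 CPM in LP, 139, 137 and 134 in HP and 135, 127 and 124 CPM in HA. LP1 was the highest library for both genes. Usp29 was among the 4 smallest p in HA against HP (log2 fold change -0.08, adjusted p = 0.84, edgeR), with overlapping groups. Zim1, a maternally expressed zinc finger gene of the cluster, ranged from 83.1 to 108 CPM.

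The Dlk1-Meg3 domain on chromosome 12 holds the maternally expressed noncoding RNAs Meg3, Rian and Mirg, which host microRNAs and small nucleolar RNAs, and the paternally expressed genes Dlk1 and Rtl1. Meg3 stood at 2340.6, 2465.2 and 2110.7 CPM in LP, 2274.3, 2411.8 and 2347.2 in HP and 2631.9, 3267.2 and 2082.2 CPM in HA. HA thus held both its highest and its lowest library. Rian ranged from 654 to 781 CPM and Mirg from 19.7 to 29.8 CPM. For all 3 noncoding RNAs HA2 was the highest library and HA3 the lowest. Dlk1, which encodes a Notch-like protein that restrains fat cell formation, ranged from 223 to 283 CPM, and Rtl1, a retrotransposon-derived gene, from 20 to 26.5 CPM.

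**Figure D3:**
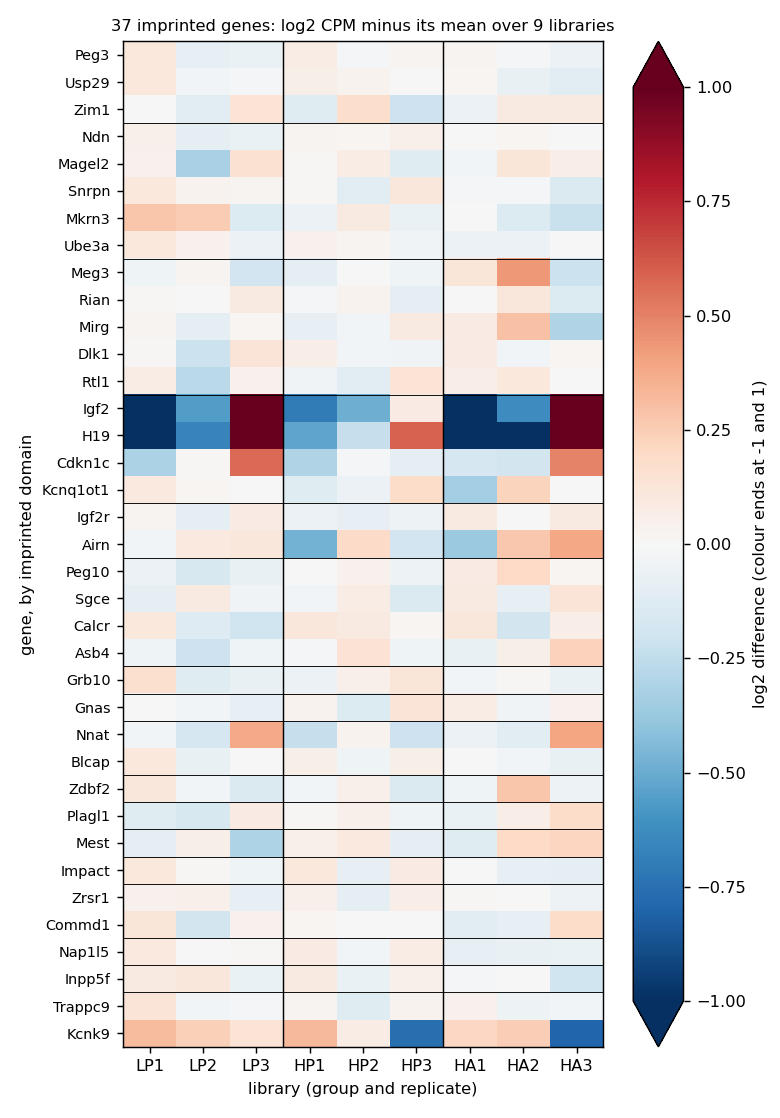
Log2 CPM of 37 imprinted genes minus the mean of each gene over the 9 libraries, with libraries in columns, genes in rows ordered by domain, and colour from -1 (blue) to 1 (red). Igf2 and H19 are highest in LP3 and HA3, and Kcnk9 is lowest in HP3 and HA3.

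Igf2 and H19 lie together on chromosome 7 (chr7:142650766-142666816 and chr7:142575529-142578143, GRCm38). Igf2 encodes a fetal growth factor read from the paternal copy, H19 is a noncoding RNA read from the maternal copy, and both share enhancers. In the brain Igf2 is known to come largely from the meninges and choroid plexus, where its imprinting is relaxed. Igf2 stood at 0.925, 2.08 and 17.7 CPM in LP, 1.89, 2.18 and 3.24 in HP and 1.43, 1.98 and 18.4 CPM in HA. LP3 and HA3 were far above the other 7 libraries, which lay within 0.925 to 3.24 CPM. H19 stood at 1.07, 1.42 and 12.8 CPM in LP, 1.56, 1.92 and 3.40 in HP and 0.737, 0.802 and 12.8 CPM in HA. The same 2 libraries were highest, followed for both genes by HP3, the library next highest in meningeal markers.

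The group comparisons of both genes followed those libraries. For Igf2 the log2 fold change of HP against LP was -1.49 (95% interval -4.01 to 1.04) and that of HA against HP 1.57 (-0.96 to 4.09), with adjusted p of 0.887 and 0.844 (edgeR). Without LP3 the former was 0.69, and without HA3 the latter was -0.52, so both changed sign. For H19 the corresponding values were -1.14 (-3.71 to 1.44) and 1.05 (-1.53 to 3.62), with adjusted p of 0.916 and 0.892 (edgeR). Without LP3 the former was 0.88, and without HA3 the latter was -1.57. HA against LP gave 0.08 for Igf2 and -0.09 for H19, with 1 high library on each side.

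A meningeal score was computed for each library as the mean deviation of log2 CPM of the 17 meningeal markers, none of which is an imprinted gene of the list. It was -1.207, -0.693 and 2.05 in LP, -0.959, -0.565 and 0.19 in HP and -0.912, -0.694 and 2.791 in HA. With the score as a term beside the group, a test added after the values were seen, edgeR called 814 genes, 4.64% of all genes tested. Among them were 4 of the 37 imprinted genes, all 4 higher with the score and 0 lower, where 4.38% of all genes were called higher and 0.256% lower. The count of 0 lower depended on single libraries and on the filter on low counts. Kcnk9 was called lower without LP3 (adjusted p = 0.00744, edgeR) and without HP3 (adjusted p = 0.0265), against 0.0772 with all 9. In addition, 1 gene was called lower without HP2 (Inpp5f) and without HA1 (Zdbf2). With no filter 4 of 38 imprinted genes, Kcnk9 among them, were called lower, beside 1.13% of the 32651 genes in that fit. The slope of Kcnk9 was the same there as with the filter. The slope, in log2 units per unit of score, was 1.12 for H19 (SE 0.0477, adjusted p = 4e-08, edgeR) and 1.05 for Igf2 (SE 0.0602, adjusted p = 3.82e-07). A slope of 1 is that of the average marker. It was 0.21 for Cdkn1c (SE 0.0333, adjusted p = 0.00224) and 0.13 for Nnat (SE 0.0245, adjusted p = 0.00658).

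Cdkn1c, an inhibitor of the cell cycle that limits growth, stood at 8.91, 11.2 and 16.5 CPM in LP, 9.02, 11.0 and 10.4 in HP and 9.90, 9.79 and 15.7 CPM in HA. Nnat stood at 812, 735 and 1076.1 CPM in LP, 707, 846 and 719 in HP and 793, 766 and 1087 CPM in HA. LP3 and HA3 were the 2 highest libraries for both genes. They were above all 7 others for 5 of 37 imprinted genes, the fifth being Plagl1, as for 8.55% of all genes, and below all 7 others for Meg3 and Inpp5f, as for 4.9% of all genes.

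Without LP3 and HA3 the score term called 0 imprinted genes, and the slopes were 0.96 for H19, 0.93 for Igf2, 0.21 for Cdkn1c and -0.08 for Nnat. Over those 7 libraries log2 CPM of Igf2 had a Pearson r of 0.90 with the score (exact permutation p = 0.0117, adjusted p = 0.942 over all genes) and a Spearman rho of 0.96 (exact permutation p = 0.00278, adjusted p = 0.738). H19 had r = 0.77 (exact permutation p = 0.0454, adjusted p = 1.0) and rho = 0.61 (exact permutation p = 0.167, adjusted p = 0.958). After leaving out HP3 and LP1, the libraries farthest from the median score, r was 0.73 for Igf2 and 0.35 for H19. The score of the remaining libraries spans only -0.959 to -0.565, so a lower r there cannot show what the relation rests on. Cdkn1c had r = 0.57 and rho = 0.82 (exact permutation p = 0.173 and 0.0341, adjusted p = 1.0 and 0.947), and Nnat r = -0.34 and rho = -0.07 (exact permutation p = 0.495 and 0.906, adjusted p = 1.0 and 0.999). Without HP3 and LP1, r was 0.80 for Cdkn1c and 0.60 for Nnat. None of the 37 passed after adjustment, and all 5040 orders of the libraries were enumerated for each. The levels of Igf2 and H19 therefore followed meningeal markers over the 9 libraries, with slopes near that of the average marker. The slope of the average marker is set by the definition of the score, and slopes of single markers were not computed. Slopes of both were of similar size in the 7 libraries of low meningeal content, where they did not pass. Nnat was called only where both LP3 and HA3 were included. The 8 choroid plexus markers summed to 37.1 to 50.7 CPM in LP, 32.6 to 36.5 CPM in HP and 30.7 to 43.6 CPM in HA, with Kcnj13 at 0 in some libraries. They did not move together: Kcnj13 was highest in LP3 and HA3 (2.31 and 3.62 CPM, at most 0.418 CPM elsewhere), Folr1 was lowest in LP3 (0.323 CPM), and Ttr stood at 2.58 CPM in LP3, 1.87 CPM in HA2 and 0.959 CPM in HA3. Their part in the result was not tested.

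**Figure D4:**
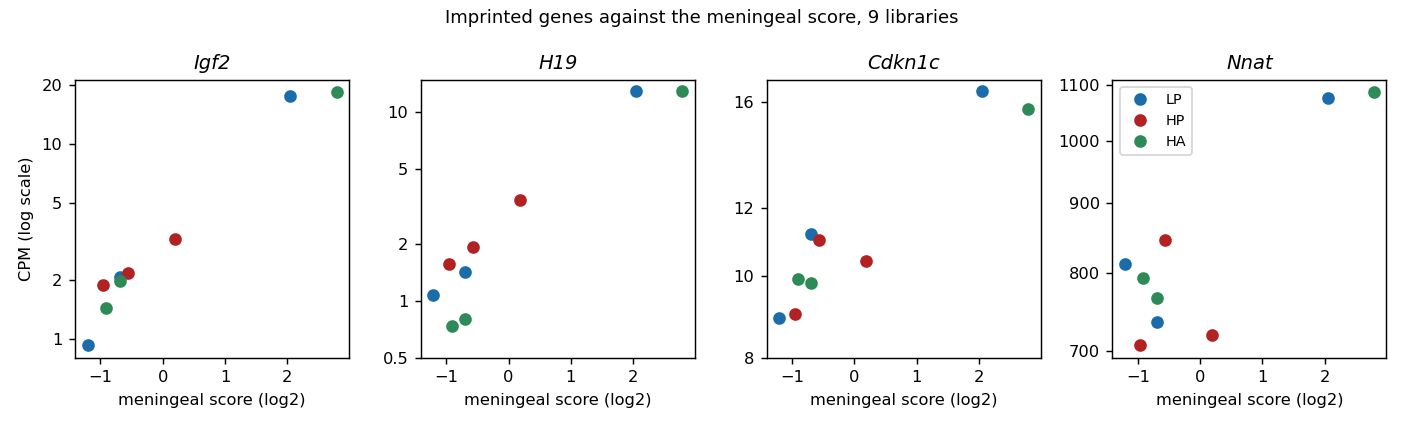
CPM (log axis) of Igf2, H19, Cdkn1c and Nnat against the meningeal score (log2) in 9 libraries, coloured by group. LP3 and HA3 are the 2 points at the right, with scores of 2.05 and 2.791, and are highest in each panel.

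Kcnk9 (ENSMUSG00000036760, chr15:72501089-72546340) encodes the background potassium channel TASK3 and is read from the maternal copy in brain. It stood at 211, 199 and 186 CPM in LP, 212, 178 and 100.3 in HP and 195, 201 and 97.5 CPM in HA. HP3 and HA3, the 2 libraries with the title code Hg13, were low, and the other 7 lay between 178 and 212 CPM. The groups overlapped, and the log2 fold change was -0.28 (SE 0.286) in HP against LP, 0.01 (SE 0.287) in HA against HP and -0.27 (SE 0.286) in HA against LP, with adjusted p of 0.914, 0.997 and 0.872 (edgeR). A test of code Hg13 against Hg43 over the 6 libraries of HP and HA, with the group as a term, was added after these values were seen. The log2 difference was -0.99 (SE 0.0739, 95% interval -1.16 to -0.82, adjusted p = 0.00803, edgeR), lower in 2 of 2 Hg13 libraries, and 0.0228% of all genes were called.

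Its neighbours Trappc9, Peg13, Chrac1 and Ago2 were not called by code, and the difference between them and Kcnk9 was not tested. Trappc9, which encodes a subunit of a vesicle transport complex, lay at 76.6 CPM in HP3 and 73.1 CPM in HA3, within the 68.7 to 76.7 CPM of the 4 Hg43 libraries. Peg13, the paternally expressed noncoding RNA inside Trappc9 that marks the control region of the domain, lay at 450.1 and 420.2 CPM, against 390.2 to 436 CPM. Other genes called by code included Cwc22, with a log2 difference of -2.83, and Wnt6, with 4.18, both named after their values were seen. HA3 also has the highest meningeal score, and HP3 the highest of the other 7. Over those 7 libraries Kcnk9 had r = -0.94 and rho = -0.86 with the score (exact permutation p = 0.00377 and 0.0238, adjusted p = 0.785 and 0.947), and r = -0.74 without HP3 and LP1. With the score as a term over 9 libraries its slope was -0.21 (adjusted p = 0.0772, edgeR), -0.33 without LP3 and -0.18 without HP3, both of which passed, and -0.13 without HA3 (adjusted p = 0.652). With no filter on low counts the slope was again -0.21 and passed (adjusted p = 8.44e-33, edgeR). That fit covered 32651 genes, and the counts and slope of Kcnk9 were the same as with the filter. The smaller p therefore came from the spread estimated in that fit and is not stronger evidence about Kcnk9. LP3, at 2.05 on the score, held 186 CPM of Kcnk9, against 211 CPM in LP1 and 199 CPM in LP2. The code and the score were not tested apart. Whether litter, genotype or another property goes with the code was not tested. Without HA2 the difference was -0.98, with an adjusted p of 0.0964 (edgeR).

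**Figure D5:**
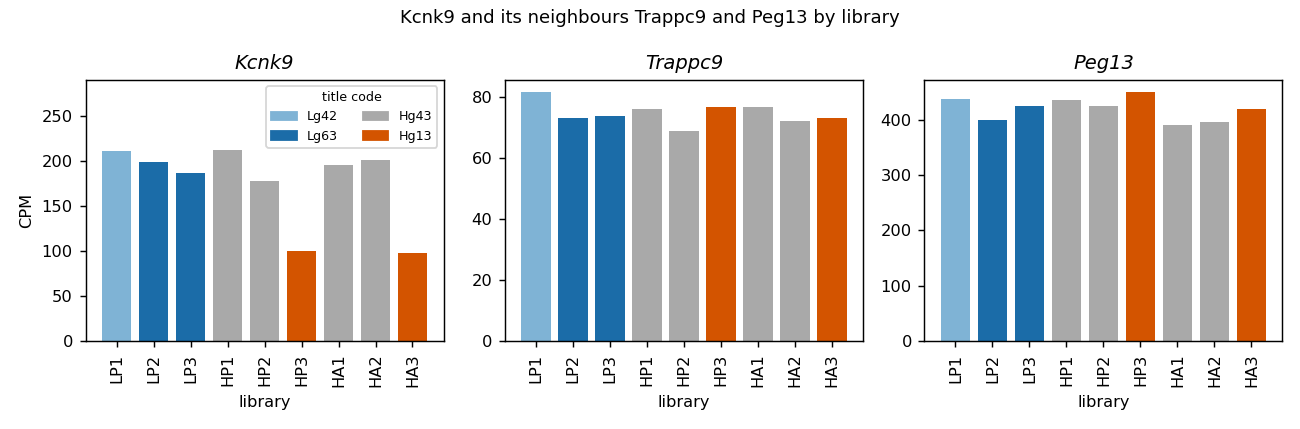
CPM of Kcnk9, Trappc9 and Peg13 in each of the 9 libraries (bars), coloured by title code. Kcnk9 is at 100.3 CPM in HP3 and 97.5 CPM in HA3 and at 178 CPM or more in the others, while Trappc9 and Peg13 show no such drop.

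Among single genes of other domains, Nap1l5 had the lowest p in HA against HP. It stood at 2236.4, 2088.3 and 2101.3 CPM in LP, 2212.6, 2045.1 and 2195.7 in HP and 1968.9, 1980.6 and 1995.4 CPM in HA. Every HA library was below all libraries of HP and LP, as for 5.89% and 5.51% of all genes in the 2 comparisons. The log2 fold change was -0.12 (SE 0.0547) in HA against HP and -0.11 (SE 0.0547) in HA against LP, with adjusted p of 0.84 and 0.791 (edgeR), so neither passed. Igf2r, the receptor that clears IGF2 and sorts lysosomal enzymes, stood at 50.3, 46.0 and 52.1 CPM in LP, 47.3, 46.7 and 47.7 in HP and 52.6, 49.4 and 52.4 CPM in HA. HA lay above HP without overlap, as for 5.92% of all genes (log2 fold change 0.12, SE 0.058, adjusted p = 0.84, edgeR). Airn, the antisense RNA of Igf2r, ranged from 1.5 to 2.72 CPM, and Kcnq1ot1 from 17.0 to 25.1 CPM.

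The remaining domains showed overlapping groups in all 3 comparisons. Grb10, which encodes an adaptor that dampens insulin and IGF signalling and is read from the paternal copy in neurons, stood at 299, 247 and 255 CPM in LP, 257, 277 and 292 in HP and 263, 269.8 and 256 CPM in HA. Gnas, the gene of the stimulatory G protein alpha subunit, whose isoforms differ in their expressed allele, stood at 346, 339 and 326 CPM in LP, 354, 314 and 379 in HP and 365, 338 and 356 CPM in HA. Gene counts pool those isoforms. Zdbf2, a growth gene active in the hypothalamus and pituitary, stood at 231, 209 and 193 CPM in LP, 209, 220.4 and 193 in HP and 207, 259 and 206 CPM in HA, with HA2 highest.

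Plagl1, a zinc finger transcription factor gene, stood at 66.2, 64.5 and 76.1 CPM in LP, 72.5, 74.5 and 69.8 in HP and 68.7, 75.3 and 81.7 CPM in HA. Mest, a gene of growth and maternal behaviour, stood at 32.7, 36.2 and 28.0 CPM in LP, 36.0, 37.1 and 32.5 in HP and 32.0, 39.9 and 40.3 CPM in HA. Mest shares 23.1% of its exon bases with Copg2 on the other strand, and reads from these 2 genes are not separable without strand information. Impact, a regulator of protein synthesis under amino acid shortage, stood at 813, 762 and 733 CPM in LP, 816, 715 and 801 in HP and 759, 714 and 711 CPM in HA. Inpp5f, a phosphoinositide phosphatase gene, stood at 233, 237 and 209 CPM in LP, 233, 209 and 227 in HP and 216, 218 and 191 CPM in HA, lowest in HA3. Zrsr1, a splicing factor gene inside an intron of Commd1, stood at 90.9, 91.4 and 83.2 CPM in LP, 91.2, 82.3 and 92.4 in HP and 88.9, 88.1 and 85.1 CPM in HA. Zrsr1 shares 9.2% of its exon bases with Commd1 on the other strand. Commd1, a copper handling gene, ranged from 7.06 to 9.11 CPM, and Blcap, the neighbour of Nnat, from 197 to 224 CPM.

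Related genes were not called either. The lists held 52 other imprinted genes, 24 regulators of imprinting (among them methyltransferases and TET enzymes) and 20 genes of the IGF axis, of which 41, 21 and 18 were tested. In each comparison 0 genes of each list were called by edgeR. At an unadjusted p under 0.05 the largest count was 4 of the 18 IGF axis genes, when HA was compared with HP. Of all genes, 5.42% had such a p there. The IGF axis had 2 such genes in each of the other comparisons. The other imprinted genes had 1 to 3 of 41 and the regulators 0 to 2 of 21, depending on the comparison. The share of all genes lay between 5.42% and 6.51%. The DNA demethylase genes Tet2 and Tet1 had the smallest p of the regulators in HP against LP: Tet2 stood at 32.9, 36.1 and 33.8 CPM in LP against 29.8, 30.5 and 28.9 CPM in HP (adjusted p = 0.779, edgeR), and Tet1 at 29.8, 27.5 and 29.2 CPM in LP against 25.0, 24.7 and 26.8 CPM in HP (adjusted p = 0.792, edgeR). HP lay below LP without overlap for both, as for 5.83% of all genes. In the other 2 comparisons Mbd3, a gene of the methyl-CpG binding domain family, had the smallest p, with 97.0 to 100.1 CPM in LP, 98.7 to 103 CPM in HP and 102 to 108 CPM in HA (adjusted p = 0.84 against HP and 0.756 against LP, edgeR), followed by Tet1 in HA against HP and Tet3 in HA against LP.

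In the IGF axis, Irs1, an adaptor of insulin and IGF receptors, stood at 18.9, 17.1 and 16.5 CPM in LP, 22.5, 21.8 and 20.9 in HP and 22.9, 20.4 and 24.1 CPM in HA. All libraries of HP and HA were above all of LP, as for 5.93% and 5.4% of all genes in the 2 comparisons. Neither comparison passed (adjusted p = 0.683 and 0.645, edgeR). Of 18 genes tested, 16 had a higher estimate in HA than in HP. Their median was 0.122 on the log2 scale, beside 0.003 over all genes. The share of all genes with a higher estimate was not computed. The summed level of the list was 678 CPM in HA1, 714 CPM in HA2 and 1407.9 CPM in HA3, against 657 to 691 CPM in HP. In LP it was 681, 685 and 929 CPM, highest in LP3. The binding protein genes Igfbp5 (287 CPM) and Igfbp7 (80.7 CPM) were both highest in HA3, against at most 221 and 36.4 CPM in the other libraries, and the part of meningeal content in this was not tested. Igf2bp2 ranged from 1.36 to 3.28 CPM. Among the other imprinted genes, the smallest p belonged to Peg12 and Th in HP against LP, Peg13 and Bcl2l1 in HA against HP, and Th and Mcts2 in HA against LP. Peg12, of the Prader-Willi domain, ranged from 1.18 to 1.27 CPM in LP against 1.67 to 1.97 CPM in HP (adjusted p = 0.792, edgeR). Th, the tyrosine hydroxylase gene of dopamine synthesis, stood at 29.7 to 41.7 CPM in LP and 24.7 to 26.4 CPM in HA (adjusted p = 0.702, edgeR). Neither difference passed.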

How the data were processed

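Per the labels' protocols, libraries were made from 3 µg of total RNA with the NEBNext Ultra kit, which is not described as stranded. Per the submitters' processing notes, the authors' tools include featureCounts 1.5.0-p3, HISAT2 2.0.5 and DESeq2 1.16.1. The authors deposited whole-number read counts per gene, not normalized, and FPKM values, scaled by gene length and library size. The notes name mm9, but 98.3% of shared gene identifiers have the start and end of GRCm38 (GENCODE M21), so coordinates are read as GRCm38.

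Counts of all 9 libraries were fitted with edgeR 4.0.16 (R 4.3.3): quasi-likelihood F test, group as the only term, filterByExpr (17546 genes), TMM, two-sided, Benjamini-Hochberg over all genes, threshold 0.05. The biological coefficient of variation was 14.1%. CPM values are scaled by TMM totals, with a prior count of 2 on the log2 scale. Standard errors (SE) were derived from the estimate and its F statistic, as |log2 fold change|/√F. The exact permutation correlation was planned with adjustment over the list and is given adjusted over all genes instead. Scripts were tested on simulated data. One of the genes called by title code is not reported here.

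Per-library values are given for Igf2, H19, the 4 genes of smallest p per comparison, the highest FPKM of each domain and the 3 largest coefficients of variation. Of the related lists, the 2 genes of smallest p per comparison are named. Genes and lists were chosen with earlier results of these data known. Replicate numbers were checked as pairs: deviations of same-numbered libraries correlated at 0.256, 0.144 and 0.486 between LP and HA, at 0.137, -0.028 and 0.159 between LP and HP, and at 0.082, 0.004 and 0.118 between HP and HA, so every same-numbered pair exceeded 0.1 only between LP and HA. Differently numbered libraries of LP and HA correlated at 0.251 (LP1 and HA2), 0.182 (LP2 and HA1), -0.367, -0.236, -0.352 and -0.319. The value of 0.486 belongs to LP3 and HA3, the 2 libraries highest in meningeal markers. The alternative fit with the replicate number as a block covered all 9 libraries. For any 2 libraries of the same group the chi-square of counts per degree of freedom was 4.73 to 25.83, so none was a repeat sequencing of the same library. Whether 2 libraries were made from the same animal cannot be told from this value. An exact permutation test of 3 against 3 cannot go below p = 0.1 and was not used. Alternatives were DESeq2 1.42.0, other scalings and filters, each library left out, the replicate block and the meningeal score as a term.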

Additional observations from a re-analysis of the deposited data

How the results depend on the processing

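The count of imprinted genes called was 0 in all 3 comparisons under every alternative run (17, 18 and 17 of them), including DESeq2, the replicate block and each library left out; the smallest adjusted p under any was 0.625, 0.268 and 0.127. With the replicate block 0 imprinted genes were called in each comparison, with smallest adjusted p of 0.753, 0.766 and 0.628, and no call changed. Calls over all genes did depend on the setting: DESeq2 gave 32, 7 and 25, no filter on low counts 53, 5 and 41, and the replicate block 4, 2 and 0, against 2, 2 and 0.

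Signs turned only for Igf2, H19, Kcnk9 and the slope of Nnat among the values followed. With single libraries left out, HP against LP lay between -2.01 and 0.69 for Igf2 and between -1.62 and 0.88 for H19. HA against HP lay between -0.52 and 2.06 for Igf2, between -1.57 and 1.56 for H19 and between -0.24 and 0.28 for Kcnk9 (-0.13 without HA1 and -0.15 without HA2). HA against LP lay between -2.01 and 2.26 for Igf2 (-0.44 without LP1, -0.35 without LP2) and between -2.71 and 1.92 for H19 (0.43 without HA1, 0.41 without HA2). Without both LP3 and HA3, HP against LP was 0.69 for Igf2 and 0.88 for H19, and HA against HP was -0.52 and -1.57. With the meningeal score as a term, added after seeing the data, HP against LP was 0.23 for H19, HA against HP was -0.26 for Igf2 and -1.06 for H19, and HA against LP was -0.36 for Igf2. The score term called 4 imprinted genes, beside 4.64% of all genes. With no filter on low counts it called 8 of 38, 4 of them lower. Of the 32651 genes in that fit, 4.74% were called and 1.13% were called lower. With single libraries left out it called 3 to 5, beside 1.84% to 4.73% of all genes. Without LP3 and HA3 it called 0, beside 0.0171% of all genes. The slope of Nnat was then -0.08, and 0.12 to 0.14 with single libraries left out. Nnat had an adjusted p of 0.083 without LP3 and 0.152 without HA3 (edgeR). The difference of Kcnk9 by title code lay between -1.05 and -0.94 with single libraries left out, and was -0.98 with an adjusted p of 0.0964 without HA2 (edgeR). The causes were not tested. With 3 libraries a group, the confidence intervals of Igf2 and H19 reached past a 2-fold change.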
